A study of Rattus norvegicus with 8 samples.

Results

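Chromosome 11 between 60 and 70 Mb of the rat genome (build rn6) holds a block of DNA that was read many times more often in 2 of the 5 bladder tumours, BT-4 and BT-5, than in any other sample. Its methylation is described here from CpGs read 3 or more times, summed within tiles of 200 bp, and a tile was used if each of the 8 samples held 3 or more such CpGs. The stretch was chosen by measured coverage, so its coverage is given as a description, without a test. It held 1084 such tiles of 257611 on all chromosomes, and 6641 of the 15717 CpGs listed there lay in them. The remaining tiles of its 6171 with any CpG lacked enough CpGs in some sample.

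The samples were 5 tumours, called urothelial carcinomas (UCs) by the study, and 3 controls. All came from F344/DuCrj rats, 10 weeks old at the start, which drank water with 200 ppm (UCs) or 0 ppm (controls, C1 to C3) dimethylarsinic acid (DMA) for 104 weeks. The study describes the rats as male, and picked the tumours by eye and size with no histology. The controls are labelled urothelium, whereas the study's methods describe bladder tissue, and methylation calls hold no expression markers with which to check either. DNA was cut with TaqaI and MspI, treated with bisulfite and sequenced as single-end reads (reduced representation bisulfite sequencing, RRBS), which favours CpG-rich DNA and reads a methylated cytosine as C and an unmethylated cytosine as T. The files held 51434938 to 73836223 C and T calls per sample, at a median of 14 to 18 reads per CpG. Over the tiles of the autosomes, BT-1 and BT-2 differed by a root mean square of 5.99 points and BT-4 and BT-5 by 6.15 points, less than any control pair (7.06 to 7.22 points), whereas all other tumour pairs differed by at least 13.1 points. Whether the 5 UCs came from different animals is not stated, so results are also given with each of these pairs merged.

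In tumours, a block of a chromosome can be copied many times over, in place or as separate circles of DNA, and such amplification is known for carrying growth genes in urothelial and other carcinomas. Copies are made of the DNA together with its methylation, the methyl group on the cytosine of CpG, which is absent at most CpG-rich promoters and present at most CpGs between genes. Because RRBS counts reads as well as calls, coverage follows the copy number of a block and the C share of its calls gives its methylation level. The level is a share of calls, so extra copies narrow its counting error and also give the amplified copy more weight in it than the other allele or normal cells.

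The sequences on which the promoter results turn are those of 5 genes, printed as RefSeq gives them for build GRCr8 of chromosome 11, from 250 bases before to 50 bases after the gene's start, 5′ to 3′ along the gene, with each CpG in capitals. Fstl1 encodes a secreted glycoprotein that binds ligands of the TGF-beta family, and Casr the calcium-sensing receptor. Both are on the study's list of hypermethylated genes. The promoters of Igsf11, a cell adhesion molecule of the immunoglobulin family, and Fbxo40, an F-box protein of a ubiquitin ligase, are shown because BT-4 and BT-5 stood apart there, and Stxbp5l, which encodes a syntaxin-binding protein that restrains exocytosis, because a cluster of CpGs just before it did.
Igsf11: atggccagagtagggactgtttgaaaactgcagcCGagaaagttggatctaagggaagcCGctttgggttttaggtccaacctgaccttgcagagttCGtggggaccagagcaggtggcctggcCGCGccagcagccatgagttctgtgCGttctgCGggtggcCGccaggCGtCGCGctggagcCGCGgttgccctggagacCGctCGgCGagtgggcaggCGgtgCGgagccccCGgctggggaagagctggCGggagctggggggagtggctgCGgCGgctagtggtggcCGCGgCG
Fstl1: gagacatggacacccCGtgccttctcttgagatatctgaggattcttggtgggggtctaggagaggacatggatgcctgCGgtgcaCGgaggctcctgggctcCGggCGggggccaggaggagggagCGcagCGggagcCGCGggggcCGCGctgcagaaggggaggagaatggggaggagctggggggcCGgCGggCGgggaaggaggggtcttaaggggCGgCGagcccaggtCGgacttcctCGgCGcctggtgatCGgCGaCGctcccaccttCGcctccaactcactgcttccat
Stxbp5l: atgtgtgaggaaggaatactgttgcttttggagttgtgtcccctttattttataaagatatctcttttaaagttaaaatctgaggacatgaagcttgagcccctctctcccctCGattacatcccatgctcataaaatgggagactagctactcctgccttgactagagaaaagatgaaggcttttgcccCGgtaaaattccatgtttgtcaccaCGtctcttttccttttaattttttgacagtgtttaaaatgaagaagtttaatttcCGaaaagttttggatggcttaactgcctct
Fbxo40: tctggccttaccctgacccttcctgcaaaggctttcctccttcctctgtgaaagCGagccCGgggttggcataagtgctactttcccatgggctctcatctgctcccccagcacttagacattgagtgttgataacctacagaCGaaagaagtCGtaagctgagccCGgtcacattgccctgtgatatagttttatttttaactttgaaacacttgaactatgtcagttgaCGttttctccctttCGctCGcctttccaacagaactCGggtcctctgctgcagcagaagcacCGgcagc
Casr: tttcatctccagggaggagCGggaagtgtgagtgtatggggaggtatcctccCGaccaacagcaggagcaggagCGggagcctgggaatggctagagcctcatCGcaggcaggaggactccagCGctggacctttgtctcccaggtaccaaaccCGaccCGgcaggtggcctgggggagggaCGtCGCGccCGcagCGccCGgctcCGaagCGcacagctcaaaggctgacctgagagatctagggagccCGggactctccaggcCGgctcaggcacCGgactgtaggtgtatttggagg
The 5 windows hold 25 CpGs in Igsf11, 23 in Fstl1, 4 in Stxbp5l, 10 in Fbxo40 and 18 in Casr. CCGG, the letters MspI cuts (the same on both strands), occurs 1 to 5 times in each and in 51.4% of all RefSeq promoter windows. TCGA, the letters TaqaI cuts, occurs in 23% of all windows and among these 5 once, in Stxbp5l. The Casr region tested below is bases 201 to 250 of its printed window, and that of Fstl1 lies 47 to 113 bases before the first printed base.

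A single block of 25 windows of 200 kb, chr11:61800001-66800000, was raised in BT-4 and BT-5 and in no other sample, and is the amplified part of the stretch. Coverage is given as the log2 of a window's share of the autosomal calls over the mean share of the 3 controls, and the edges are where both tumours pass 1, which is 2 times the control share. At the left edge the last window outside was at 0.22 in BT-4 and 0.04 in BT-5 and the window inside at 2.58 and 2.41. At the right edge the window inside was at 1.47 and 1.42 and the window outside at -0.17 and 0.05. Over the 5 Mb it was 3.13 in BT-4 and 2.93 in BT-5, which is 8.73 and 7.64 times the control share. In the other samples it was 0.05, -0.04 and -0.01 in C1, C2 and C3, and 0.06, 0.15 and 0.14 in BT-1, BT-2 and BT-3. The lowest window of the block was 1.24 in BT-4 and 1.10 in BT-5, and the highest elsewhere was 0.60, in BT-2. The edge rule asked for windows above 1 in both tumours, so this separation follows largely from the rule. The stretch just before the block was at 0.04 in BT-4 and 0.03 in BT-5, and the stretch after it at 0.01 and 0.03. The block thus drew 1.39% of all autosomal calls in BT-4 and 1.22% in BT-5, against 0.155% to 0.177% in the other 6 samples.

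Within the block the coverage went in steps, which were drawn on the mean of BT-4 and BT-5. Both tumours therefore have the same step bounds by construction, and only the heights were read in each. This partition of 20-kb windows gave 9 raised segments. Between them the log2 coverage ran from 1.44 to 3.46 in BT-4 and from 1.42 to 3.26 in BT-5. BT-4 was above BT-5 in all 9, by 0.03 to 0.28, and the other 6 samples stayed between -0.24 and 0.41. The highest segment, chr11:63880001-65320000, was at 3.46 and 3.26, or 11.03 and 9.55 times the control share. Next to it, chr11:65360001-65600000 was at 2.06 and 1.78, and chr11:65680001-66220000 rose again to 3.39 and 3.20. The last segment, chr11:66240001-66740000, was at 2.00 and 1.89, after which chr11:66740001-67320000 was at -0.02 and 0.00.

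**Figure D1:**
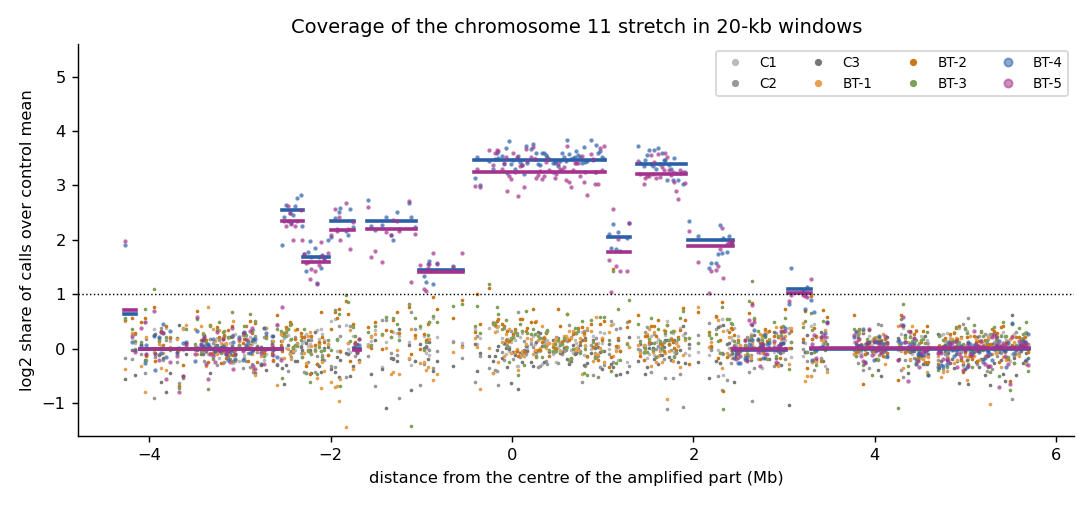
Coverage of the stretch from 60 to 70 Mb of chromosome 11 in 20-kb windows, as log2 of the share of autosomal calls over the control mean, against the distance from the centre of the amplified block in Mb. Points are windows of each of the 8 samples, horizontal bars are the segments of BT-4 and BT-5, and the dotted line is 1. Segment bounds were drawn on the mean of BT-4 and BT-5 and are the same in both. The block holds 9 raised steps, the highest at 3.46 and 3.26, and a separate step past its right edge is at 1.09 and 1.03. The windows of the other samples scatter around 0.

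In rn6 positions, a short gap broke the left side of the block. The segment chr11:62560001-62620000 was at -0.01 in BT-4 and -0.02 in BT-5, between segments at 2.35 and 2.36 in BT-4. Its placed promoter is that of Gramd1c, which encodes a membrane protein of sterol transport. In the newer build GRCr8, Gramd1c stands between Atp6v1a and Zdhhc23, both of which were not placed. The nearest placed genes on either side in that order, Naa50 and Ccdc191, have their promoters before the left edge on rn6, in a segment at -0.01 in both tumours.

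Further windows of chromosome 11 were raised in the same tumours. Outside the block, 35 of 390 windows in 9 runs were above 1 in both BT-4 and BT-5, the longest at chr11:76000001-79000000 (1.98 in BT-4 and 1.82 in BT-5), chr11:86200001-88000000 (1.70 and 1.52) and chr11:59000001-60000000 (2.53 and 2.49). The median over those 390 windows was 0.07 in BT-4 and 0.09 in BT-5, so chromosome 11 as a whole was not raised. On the other autosomes 6 of 11178 windows passed 1 in both, and some of these were also raised in another sample.

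Which genes lie in the block was read from the spacing of CpGs, because the gene table is of another build. RefSeq promoters of chromosome 11 were slid along the rn6 positions of the files and kept where every CpG that at least 4 samples list fell on a CpG of the sequence, with at least 7 such CpGs and a single such place. Of 984 promoters of chromosome 11, 450 had enough CpGs and 220 were placed. Of 984 promoters from other chromosomes tried the same way, with or without enough CpGs, 3 were placed. This put 39 genes in the stretch and 16 in the block. In rn6 order these 16 were Gramd1c, Igsf11, B4galt4, Arhgap31, Tmem39a, Poglut1, Timmdc1, LOC103693581, Adprh, Cfap91, Lrrc58, Fstl1, Gtf2e1, Rabl3, Polq and Fbxo40. Polq, the polymerase of end joining at broken DNA, and Fbxo40 were in the last raised segment, and Golgb1, which encodes the Golgi protein giantin, was the nearest placed gene past the right edge. In GRCr8 order Upk1b, a uroplakin of the urothelial surface, stands between Igsf11 and B4galt4, and Gsk3b, a kinase of Wnt signalling, between Cfap91 and Lrrc58; neither was placed, so no level is given for them.

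Most placed promoters of the block were unmethylated in every sample. Of the 15 placed promoters with at least 3 CpGs in every sample, 11 were below 5% in all 8 samples, and the highest level among these was 0.935%. In the flanks of the stretch 18 of 21 were below 5%. Some windows overlap and share calls, in the block those of Timmdc1 with LOC103693581 and of Gtf2e1 with Rabl3, and in the flanks for example Slc35a5 with Atg3. Each of the 11 rested on 267 to 1269 calls in the other samples, on 543 to 9850 in BT-4 and on 883 to 10283 in BT-5. The low ends, 543 and 883, are those of Gramd1c in the gap that was not raised, and the next lowest those of Polq, with 1996 and 2170 calls. Among them were B4galt4 (a galactosyltransferase), Timmdc1 (assembly of respiratory complex I), Gtf2e1 (a subunit of the transcription factor TFIIE) and Polq. The promoters above 5% in some sample were those of Igsf11, Cfap91, Fstl1 and Fbxo40, which were found by their values and carry no test.

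In its promoter window, Fstl1 was higher in all 5 tumours and no higher in the amplified pair. Its promoter window was at 0.779% in C1, 0.377% in C3 and 0 of 573 calls in C2, which allows a level of up to 0.524%. It was at 8.26% in BT-1, 7.86% in BT-2, 4.26% in BT-3, 5.11% in BT-4 and 4.87% in BT-5. The tumours and controls did not overlap, and BT-4 and BT-5 lay between BT-3 and BT-2. Outside this window and the tested region, some CpGs were highest in the pair. Position 65844994 was at 43.4% in BT-4 and 45.9% in BT-5, against at most 6.45% in the other 6 samples. Position 65845658 was at 48.6% and 45.7%, against at most 21.1%. Others there were low in the pair too, such as position 65845044 (3.05% and 2.67%). In Igsf11 the amplified pair lay apart from the rest, at 5.49% in BT-4 and 5.02% in BT-5 against at most 1.79% in the other 6 samples. Only 7 of the 25 CpGs of its window were listed in at least 4 samples, and the other 6 samples held 174 to 426 calls.

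Fbxo40 went in opposite directions in the tumours. Its promoter was at 19.5%, 20.5% and 18.8% in C1, C2 and C3. It was at 74.1% in BT-1, 68.8% in BT-2 and 32.6% in BT-3, all above the controls, but at 12.6% in BT-4 and 9.64% in BT-5, both below them. Cfap91, a protein of cilia and flagella, was at 8.67%, 8.86% and 11.4% in the controls. BT-3, BT-4 and BT-5 were above these (18.1%, 14.8% and 13.6%), and BT-1 and BT-2 below them (4.79% and 4.06%).

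**Figure D2:**
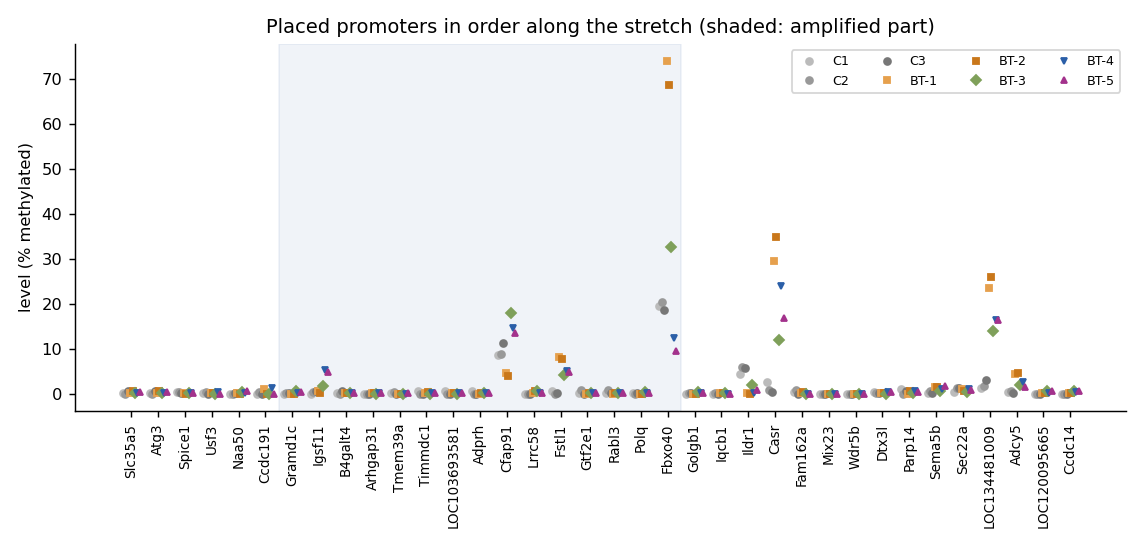
Methylation level (% of calls) of the 36 placed promoters with values in all 8 samples, in their order along the stretch, with the amplified block shaded and 1 point per sample. Most promoters are near 0 in every sample inside and outside the block; Fbxo40 reaches 74.1% in BT-1 but 9.64% in BT-5, and Fstl1 is at most 8.26%.

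The 2 regions of the study's list that lie in the stretch asked whether a gene inside the block and a gene outside it differ between UCs and controls. The region of Fstl1, chr11:65845672-65845738 with 6 CpGs, lies in a segment at 3.39 and 3.20 on the log2 coverage scale. Its level was 2.61%, 1.39% and 1.22% in C1, C2 and C3, and 53.9%, 50%, 22.9%, 44.8% and 45.1% in BT-1 to BT-5. Every tumour was above every control, BT-3 was lowest, and BT-4 and BT-5 lay between BT-3 and BT-2. The means were 43.3% ± 12.04 (SD, n = 5) and 1.74% ± 0.761 (SD, n = 3), a difference of 41.6 points (two-sided exact permutation test, p = 0.0179, the smallest that 56 divisions allow). The 3436 and 3960 calls of BT-4 and BT-5 gave 95% Wilson intervals of 43.1% to 46.4% and 43.5% to 46.6%, against 19.0% to 27.2% from the 398 calls of BT-3. These intervals cover counting error only.

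Casr, outside the block in a segment at -0.02 and 0.00, showed the same direction with its usual depth. Its region chr11:67188580-67188629, with 3 CpGs, was at 4.10%, 1.28% and 0.439% in the controls and at 52.2%, 50.5%, 20.8%, 29.8% and 22.9% in BT-1 to BT-5. The means were 35.2% ± 15.1 (SD, n = 5) and 1.94% ± 1.92 (SD, n = 3), a difference of 33.3 points (exact permutation p = 0.0357). Adjusted by Benjamini-Hochberg over the 4 permutation tests of this text, p was 0.0357 for Fstl1 and 0.0476 for Casr. The study chose both regions on these samples, so neither test is independent evidence of direction. With BT-1 and BT-2, and BT-4 and BT-5, merged, the differences were 38.4 points for Fstl1 and 30.8 points for Casr, each at an exact permutation p of 0.1, the smallest that 3 against 3 samples allow. For Fstl1 the exact permutation p rose to 0.0571 without BT-1, BT-2, BT-4 or BT-5, with differences of 38.9 to 41.2 points. For Casr it rose to 0.0952 without C1, C2 or C3 and to 0.0571 without BT-3, BT-4 or BT-5, with differences of 32.5 to 36.9 points.

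Single CpGs of Fstl1 were set differently in the amplified pair. At position 65845672, BT-4 and BT-5 were at 75.0% and 73.8% and BT-1 and BT-2 at 15.5% and 8.51%. At position 65845691 the order was the reverse, with 43.0% and 42.0% against 86.9% and 79.1%. At position 65845722, BT-4 and BT-5 were at 81.7% and 82.2%, and no other sample passed 33.8%. BT-4 and BT-5 thus shared a pattern over the region's CpGs, and BT-1 and BT-2 another.

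A cluster of 39 CpGs before Stxbp5l was methylated in BT-4 and BT-5 and in no other sample. It spans chr11:66245384-66246069 (686 bases) in the last raised segment and ends 305 bases before the place of the printed Stxbp5l window. In GRCr8 order Stxbp5l stands next to Polq, after Rabl3 and Gtf2e1, and all 4 CpGs of its window matched at 1 place between Rabl3 and Polq on rn6, a match looked for after the values were seen. Over the cluster the level was 1.68%, 1.08% and 0.722% in C1, C2 and C3 and 1.92%, 2.18% and 2.56% in BT-1, BT-2 and BT-3. It was 29.1% in both BT-4 and BT-5, from 5010 and 6093 calls against 873 to 1408 in the others. A share of cells with all copies methylated and a share of copies methylated in each cell cannot be told apart in such levels. The bounds of the cluster were set after its values were seen, so it carries no test. In the fit across all tiles (limma-moderated), the tile chr11:66245401-66245600 (12 CpGs) did not pass between UCs and controls (adjusted p = 0.157). It was at 38.3% in BT-4, 38.4% in BT-5 and at most 3.46% elsewhere, and such spread within the UCs works against a pass.

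The methylation of the cluster was set CpG by CpG. In both tumours 7 of its 39 CpGs were over 50%, 10 were under 10% and 22 lay between or differed. At the position 66246023 the level was 75.9% in BT-4 and 76.7% in BT-5, while the CpG after it was at 6.45% and 3.30%. BT-4 and BT-5 were both above all 6 other samples at 32 of the 39, a count that follows in part from choosing the cluster on these values. Counted by tiles rather than CpGs, both were above all others in 14.7% of the block and 8.29% of the rest of chromosome 11. In the cluster they differed from each other by a mean of 5.04 points and by at most 35.8 points. The highest level of any CpG in another sample was 22.2%, in BT-3. Inside the Stxbp5l window itself the order was the reverse, with 11.1% in BT-4 and 9.89% in BT-5 against 20.4% to 31.2% in the other samples.

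**Figure D3:**
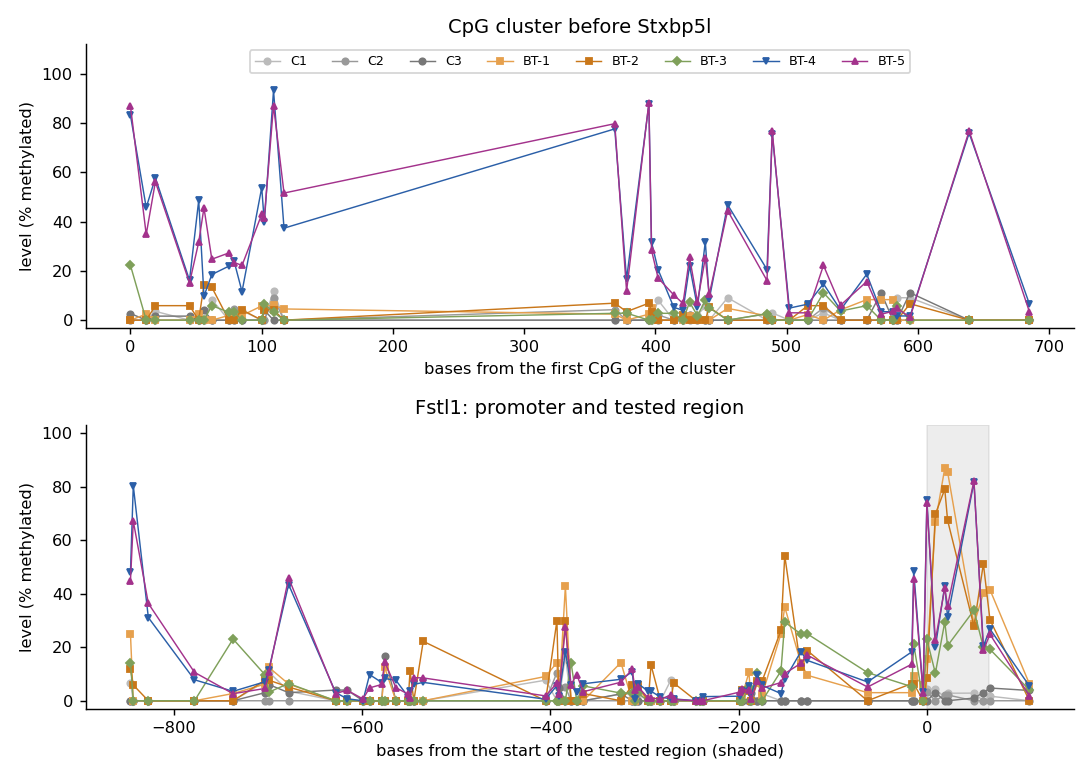
Level (% of calls) of single CpGs in each of the 8 samples, above for the 39-CpG cluster before Stxbp5l against the distance in bases from its first CpG, below for Fstl1 against the distance from the start of the tested region (shaded); lines only join the CpGs of a sample. In the cluster, BT-4 and BT-5 alternate between levels such as 75.9% and 6.45% at neighbouring CpGs while the other samples stay at or below 22.2%; in Fstl1 all 5 tumours rise in the shaded region.

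Over all 468 tiles of the block, methylation was somewhat higher in UCs than in controls, in amplified and unamplified tumours alike. The mean level was 64.3%, 64.3% and 63.9% in C1, C2 and C3, 68.5%, 67.7% and 65.5% in BT-1, BT-2 and BT-3, and 65.8% and 65.7% in BT-4 and BT-5. Every tumour was above every control. The group means were 66.6% ± 1.37 (SD, n = 5) and 64.2% ± 0.256 (SD, n = 3), and the difference of 2.47 points did not pass the exact permutation test (p = 0.0536, also after adjustment). The exact permutation p was 0.0286 without BT-1 (2.02 points) or without BT-2 (2.197 points), and 0.1 with the like pairs merged (2.29 points).

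The question of whether the block differs from its chromosome was asked within classes of tiles of like CpG number (dense, 10 or more; sparse, 3 to 9) and like control level (under 20%, 20% to 80%, over 80%). Its level minus that of the 6515 tiles on the rest of chromosome 11 was 0.101, -0.102 and -0.0973 points in C1, C2 and C3. The classes were drawn on the levels of these controls, so control values near 0 follow largely from the classing. It was 2.45, 2.00 and 1.33 points in BT-1, BT-2 and BT-3, and 2.34 and 2.15 points in BT-4 and BT-5. All 5 tumours exceeded all 3 controls, and BT-4 and BT-5 lay inside the range of the tumours without the amplification. The difference was 2.09 points (exact permutation p = 0.0179, adjusted p = 0.0357), and 2.28 points at the same p without the other raised windows of chromosome 11. Without classes it was 2.00 points (exact permutation p = 0.0179). With the like pairs merged it was 1.96 points, at an exact permutation p of 0.1. In mean level without classes, the tiles after the block differed by 2.44 points between the groups and those before it by 1.30 points, against 0.477 points over the rest of chromosome 11.

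**Figure D4:**
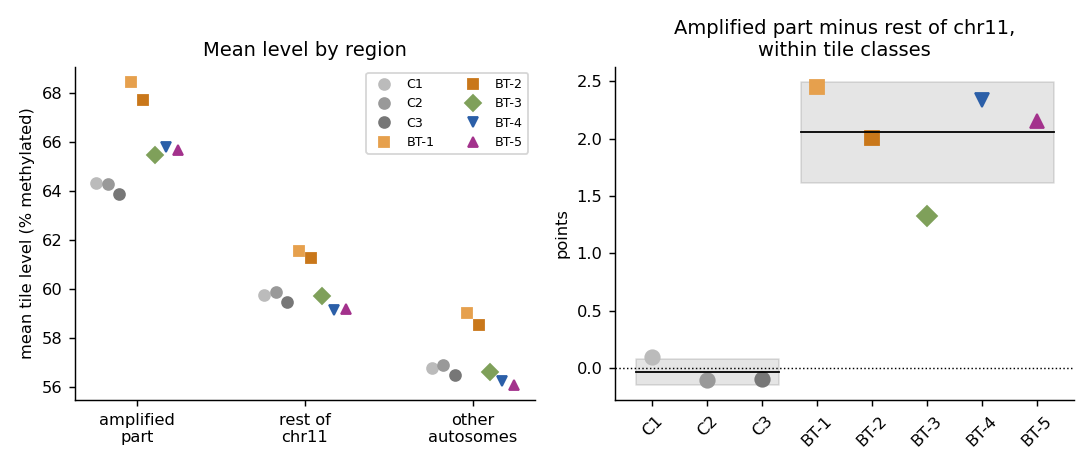
Left, mean tile level (% methylated) of each sample in the amplified block (468 tiles), the rest of chromosome 11 (6515 tiles) and the other autosomes (246688 tiles), on an axis that does not start at 0. Right, block minus rest of chromosome 11 within tile classes, in points, with the group mean (line) and SD (band); the controls sit near 0 and the 5 tumours between 1.33 and 2.45, BT-4 and BT-5 among them. The classes were drawn on the controls' levels, which favours control values near 0.

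By class, the amplified pair stood out in dense tiles that the controls left unmethylated, and this rested on the Stxbp5l cluster. It was also highest, by less, in sparse tiles under 20%. In the 35 dense tiles under 20%, the level was 0.599%, 0.598% and 0.490% in the controls, 2.29%, 1.97% and 1.49% in BT-1, BT-2 and BT-3, and 3.62% in both BT-4 and BT-5. On the rest of chromosome 11 the 716 tiles of this class were at 2.11% in the mean of BT-1, BT-2 and BT-3 and at 2.25% in the mean of BT-4 and BT-5. Without the tiles of the Stxbp5l cluster, the remaining 33 in the block were at 2.17% in BT-4 and 2.16% in BT-5, and at 2.31%, 1.94% and 1.42% in BT-1, BT-2 and BT-3. In the 159 sparse tiles of 20% to 80%, BT-1 and BT-2 were highest, with 69.99% and 68.7%, BT-3 was at 64.0%, BT-4 and BT-5 were at 64.8% and 64.7%, and the controls at 59.3% to 61.4%. In the 222 sparse tiles over 80%, BT-4 and BT-5 were at 87.7% and 87.5% and the other samples between 88.7% and 89.8%. The pair's mean minus that of BT-1, BT-2 and BT-3 was -2.81 points in the sparse tiles of 20% to 80% and -1.66 points in those over 80%. On the rest of chromosome 11 it was much the same, at -2.68 and -1.79 points.

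Tile by tile, rises outnumbered falls. A tile was called in a quasi-binomial model with limma-moderated dispersion at an adjusted p under 0.05 and a difference of over 10 points. In the block 57 of 468 tiles (12.2%) were called higher in UCs, where 8.88% of all 257611 tiles were. Lower were 26 (5.56%), where 6.99% of all tiles were. The median difference was 1.13 points over the 468 tiles and 0.328 points on the other autosomes, 27.6 points among those called higher and -37.7 points among those called lower. In 98 tiles (20.9%) every UC was above every control, against 15.4% of all tiles, and in 38 (8.12%) every UC was below, against 10.0%. With a control left out the counts of higher and lower tiles were 32 and 14 without C1, 30 and 17 without C2, and 25 and 15 without C3. With the like pairs merged they were 26 and 16.

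The largest called rises were in all 5 tumours, which their choice by size favours, with BT-3 lowest in each. Tile chr11:61998001-61998200 went from 27.0%, 24.7% and 27.8% in the controls to 90%, 94.1%, 75.4%, 93.8% and 95.8% in BT-1 to BT-5, a difference of 63.3 points (adjusted p = 0.00146). Tile chr11:62268801-62269000 rose by 59.2 points (adjusted p = 0.0169), with BT-3 at 54.7% and the other tumours at 89.6% to 97.4%. Tile chr11:64952601-64952800, between the placed promoters of Adprh and Cfap91, rose by 55.7 points (adjusted p = 0.0199), with BT-4 and BT-5 at 87.6% and 88.0%. In the same interval, chr11:64883401-64883600 rose by 54.0 points (adjusted p = 0.0121), and there the amplified pair (56.5% and 61.5%) was nearer to BT-3 (48.6%) than to BT-1 and BT-2 (90.2% and 85.9%). Tile chr11:65926401-65926600, between Fstl1 and Gtf2e1, rose by 50.6 points (adjusted p = 0.0427).

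Of the 5 largest falls, 4 lay in pairs of neighbouring tiles between Cfap91 and Lrrc58. Tile chr11:65304201-65304400 went from 82.2%, 86.4% and 93.0% in the controls to 5.47%, 2.08%, 2.78%, 9.06% and 3.95% in BT-1 to BT-5, and fell by 82.6 points (adjusted p = 0.000581). Its neighbour chr11:65304001-65304200 fell by 58.2 points (adjusted p = 0.0062), to 0.946% and 0.580% in BT-4 and BT-5 and 25.4% in BT-3. Tiles chr11:65292801-65293000 and chr11:65293001-65293200 fell by 56.03 and 62.1 points (adjusted p = 0.0156 and 0.00143). The remaining one, chr11:64968801-64969000 before Cfap91, fell by 58.9 points (adjusted p = 0.0013). In all 5 tiles the tumours and the controls did not overlap, which choosing the largest called falls favours, and no tumour passed 35.4%.

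BT-4 and BT-5 were then set against BT-1, BT-2 and BT-3 as a description, since coverage singled them out. Their mean level in the block was 1.48 points lower, against 1.67 points lower on the rest of chromosome 11 and 1.89 points lower on the other autosomes. They differed by over 20 points in 50 tiles of the block (10.7%), higher in 16 and lower in 34, against 7.77% of tiles on the rest of chromosome 11. In segments above 3 on the log2 coverage scale the share was 8.10% of 321 tiles. In raised segments of 1 to 3 it was 18.9% of 127 tiles, counted with the separate step past the right edge, chr11:67340001-67600000. Both stood above all 6 other samples in 69 tiles (14.7%) and below all in 76 (16.2%), against 8.29% and 12.9% on the rest of chromosome 11. Thinned to the calls of the sample with the fewest in each tile, these shares were 10.0% and 10.5% in the block and 5.40% and 9.56% on the rest.

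The 5 tiles that set them furthest apart included Fbxo40 and 4 sites between placed genes. Tile chr11:66714001-66714200, in the Fbxo40 promoter, was at 14.1% and 11.6% in BT-4 and BT-5, 81.9%, 82.4% and 39.4% in BT-1, BT-2 and BT-3, and 21.1% to 24.7% in the controls. Tile chr11:61904401-61904600 was at 30.1% and 35.3% in the pair and at 75.0% to 92.6% in the other 6 samples. Tile chr11:64982601-64982800 was at 26.3% and 25.4% against 70.6% to 83.2%. Tile chr11:63747601-63747800 was at 29.0% and 29.8% against 55.1% to 88.6%. In chr11:65714201-65714400 the pair was high, at 81.2% and 82.0% against 23.8% to 40%. None of the 5 was called between UCs and controls in the quasi-binomial fit, at adjusted p of 0.236 to 0.446. They were chosen for their spread within the UCs, which works against a call.

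**Figure D5:**
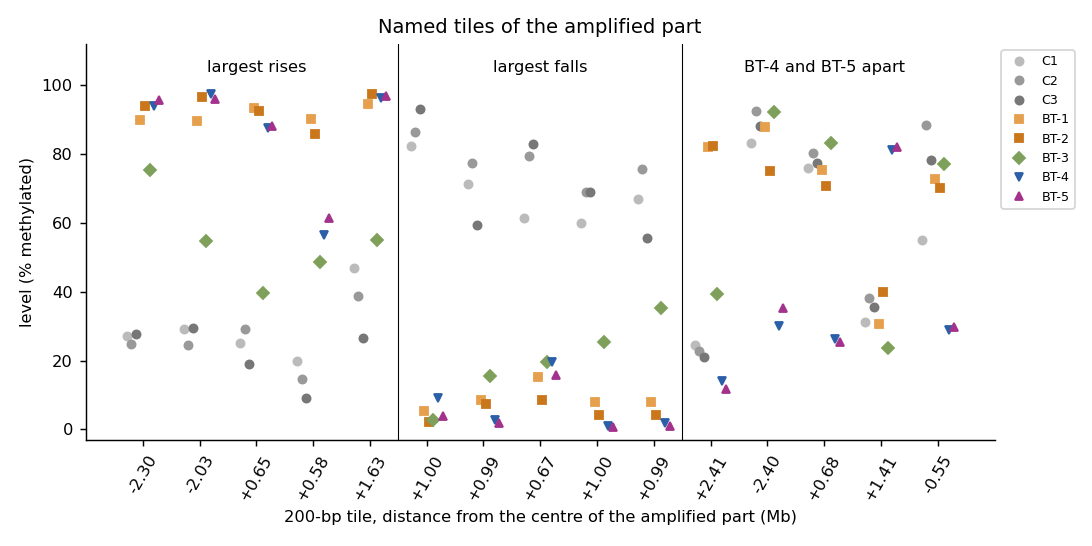
Methylation level (%) of the 15 named tiles in each sample, labelled by distance from the centre of the block in Mb: the 5 largest called rises, the 5 largest called falls, and the 5 largest differences between BT-4 with BT-5 and the other tumours. In the last group BT-4 and BT-5 sit together at 11.6% to 35.3% in 4 tiles and at 81.2% and 82.0% in the other.

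The amplified tumours were nearer to each other in the block than on the rest of the chromosome, at a higher depth. Over the tiles of the block BT-4 and BT-5 differed by a mean of 1.92 points, against 3.92 points on the rest of chromosome 11, where they had a median of 97 and 134 calls per tile instead of 734.5 and 851. After thinning, the mean differences were 4.69 and 5.08 points. BT-1 and BT-2, at 108.5 and 117.5 calls, differed by 3.73 points in the block. The share of the block's tiles over 90% was 22.2% to 25.4% in the controls, 43.6%, 43.2% and 29.3% in BT-1, BT-2 and BT-3, and 37.8% and 38.2% in BT-4 and BT-5. BT-4 and BT-5 listed 7187 and 7762 CpGs in the block, and the other samples 4320 to 4958.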

How the data were processed

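Reduced representation bisulfite sequencing was analysed for 3 control and 5 UC samples, with 51434938 to 73836223 C and T calls each. Per the study's methods, adapters were trimmed, reads were aligned to rn6 with RRBSMAP, only unique alignments were retained and a random barcode served to discard PCR duplicates; HOMER is named in the submitters' processing notes. The deposited files give, per CpG, the count of C calls and of C and T calls that the authors' pipeline made, an estimated count (effective C and T calls, whose deposited values need not be whole), the methylation fraction of the authors, and the count of G and A calls of the opposite strand. CpGs with fewer than 3 reads are not listed.

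Here the methylation level was C calls over C and T calls, in percent, with tiles, windows and filters as stated beside the results, and coverage used chromosomes 1 to 20. In each tile, a sample with more calls than the median of the 8 was scaled to that median, because BT-4 and BT-5 would otherwise carry most weight. A quasi-binomial model compared UCs with controls over all 257611 tiles, with the dispersion moderated in limma 3.58.1 (R 4.3.3) and Benjamini-Hochberg adjustment over all of them, and was tested on simulated counts. Single values were compared by two-sided exact permutation over 56 divisions. The labels do not say that samples were separate animals, so p-values measure the spread between these samples, which may be partly technical. Python 3.11.15 with numpy 2.4.6, pandas 2.3.3, scipy 1.17.1 and matplotlib 3.10.9 was used. Segments came from a penalised partition of the mean log2 coverage of BT-4 and BT-5, so their bounds are the same in both.

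No rn6 gene annotation was used, so promoters of GRCr8 were placed by CpG spacing. Members, lists and tests were chosen with earlier results of these data known. Named by rule were Fstl1, Casr, the 5 largest called rises and falls, and the 5 tiles in which BT-4 with BT-5 differed most from the other UCs; other genes were named after their values were seen. Alternatives were other read minimums, tile sizes, edges, models, merged pairs and samples left out.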

Additional observations from a re-analysis of the deposited data

Results flagged for a closer look

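In 5 of 34 measures with 5 UCs, a sample lay far from the other 4 relative to the range. In all 5 it was BT-3, and in all 5 its level was the nearest to the controls. BT-3 was at 75.4% in the tile at 61998001, 54.7% at 62268801, 39.6% at 64952601 and 55.02% at 65926401, below the other UCs in each. At 65292801, where methylation fell, it was at 35.4%, above the others.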

How the results depend on the processing

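No result of the block turned in direction. Its coverage was 3.11 to 3.15 in BT-4 and 2.91 to 2.96 in BT-5 with a control left out, and its length was 5 Mb under 7 alternatives, but 2.6 Mb with edges at 2 on the log2 scale and 2.8 Mb with windows of 100 kb, some of which held too few CpGs for a value. Against 57 higher and 26 lower tiles, the counts were 97 and 53 with at least 10 calls per tile (918 tiles tested), 26 and 16 with the like pairs merged, 36 higher without moderation, and 17 lower with at least 10 reads per CpG (271 tiles tested). With a sample left out, 25 to 75 were higher and 14 to 32 lower. The difference in mean level was 2.91 points (exact permutation p = 0.0179) with at least 10 reads per CpG, 1.99 points (exact p = 0.0357) with edges at 2, and 2.02 to 2.76 points with a sample left out. The block minus the rest of chromosome 11 was 1.96 points merged and 1.99 to 2.27 points with a sample left out. The regions gave 38.4 points merged and 38.9 to 46.7 points with a sample left out for Fstl1, and 30.8 and 29.04 to 36.9 points for Casr. The causes were not tested.

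With the replicate number as a block, only C1 to C3 and BT-1 to BT-3 enter, since BT-4 and BT-5 have no control of their number, and 40 tiles were higher and 22 lower. Same-numbered samples did not deviate together (correlations of 0.0150, -0.0130 and 0.0409 over 253671 tiles). The levels thus gave no sign of pairing by number, but pairing that leaves no mark on methylation would not show in them. Restricting the block to raised 20-kb segments, and leaving other raised windows out of the chromosome 11 comparison, were alternatives chosen after seeing the data. The raised segments also took in the separate step past the right edge of the block. Depth limits the other 6 samples most, with medians of 85 to 117.5 calls per tile.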

Other observations

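In the flanks of the block, 3 of 21 placed promoters were at 5% or more in some sample, and they carry no test. Casr is one of them. Ildr1, which encodes a protein of tricellular junctions, was at 4.55%, 6.18% and 5.95% in the controls and at most 2.10% in the tumours. LOC134481009 was at 1.33%, 1.95% and 3.09% in the controls and at 23.6%, 26.2%, 14.1%, 16.5% and 16.5% in BT-1 to BT-5. The coverage of BT-4 and BT-5 at both was that of the controls.

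Past the right edge of the block, chr11:67340001-67600000 was a separate low step, at 1.09 in BT-4 and 1.03 in BT-5 on the log2 coverage scale. In the other raised windows of chromosome 11, 86 of 673 tiles (12.8%) were called higher in UCs, against 8.88% of all tiles, and 47 (6.98%) lower, against 6.99%.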
